A study of Mus musculus with 9 samples.

Results

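The 33 genes described here encode Wnt ligands, their receptors, and the proteins that modulate or transmit the Wnt signal. They were chosen by gene symbol. The symbols sought were those of the Wnt, Frizzled (Fzd), Sfrp, Dkk, Axin, Dvl, Rspo, Lgr and Tcf7 families, with Lrp5, Lrp6, Lef1, Ctnnb1, Wif1, Znrf3, Rnf43, Porcn and Wls. Of 12388 gene symbols found in either deposited table, 33 matched, and 32 of these stood in both tables. The one gene listed in a single table was Dkk2, in the comparison of the knock-in-labelled with the mutant-labelled group. RefSeq annotates 61 mouse symbols that fit the rule, and the other 28 have no row in these tables and were not analysed here. Of 19 annotated Wnt ligands 3 were listed, against 10 of 12 Frizzled and Lrp receptors, all 6 cytoplasmic members and all 4 Tcf and Lef factors.

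Retinas came from embryos of the CD-1 mouse stock, taken at E12.5, in 3 groups of 3 samples each, 9 in all. The knock-in-labelled group had the genotype Neurog2GFP/Mash1KI, with GFP at one Neurog2 allele and a Mash1 knock-in at the other. The mutant-labelled group was Neurog2GFP/GFP and the heterozygote Neurog2GFP/+, so each group carried GFP at one or both alleles and no group was free of it. Pairs of GFP-positive optic cups were dissociated, and total RNA of the whole suspension was sequenced. The deposited values are RPKM, a read density scaled to transcript length and library size, given once per transcript and group. No value per sample exists in the tables, so the spread between the 3 samples of a group cannot be shown, and the depth of each sample is unknown. In such bulk RNA, fewer cells of a type and less RNA per cell cannot be told apart.

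Wnt proteins are secreted ligands that carry a lipid added by the acyltransferase Porcn. At the receiving cell they bind Frizzled receptors together with the co-receptors Lrp5 or Lrp6. The signal passes through Dishevelled (Dvl) and stops the Axin-containing complex that destroys beta-catenin (Ctnnb1), which then acts with Tcf and Lef factors on target genes. In the developing mouse eye this canonical branch favours the pigment epithelium and the ciliary margin over the central neural retina, while Frizzled receptors also work in planar polarity and axon growth.

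Neurog2 itself was at 36.2 RPKM in the mutant-labelled group and 30.2 RPKM in the heterozygote in the first table. In the table with the knock-in it was at 112 RPKM in knock-in-labelled and 35.5 RPKM in mutant-labelled retinas. It was thus not lower where both alleles are labelled as GFP, and the groups are therefore called by their labels. All 10 retinal progenitor markers and all 10 ganglion cell markers sought were listed in both tables. Male-specific RNA differed between the groups, with Eif2s3y, a Y-linked gene, listed at 0 for mutant-labelled retinas in both tables, against 28.6 RPKM for the knock-in-labelled and 21.9 RPKM for the heterozygote. In the first table Kdm5d, another Y-linked gene, was also at 0 RPKM in mutant-labelled retinas, against 12.8 RPKM in the heterozygote. In these pooled values sex cannot be told apart from the labelled genotype for any member. Titles carry the number 311 for the knock-in-labelled samples and 466 for the others, and whether this number marks a litter or batch cannot be told apart from the knock-in label.

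Sfrp2, Dkk3 and Ctnnb1 dominated the family by summed RPKM. Sfrp2, a secreted Frizzled-related protein that binds Wnt ligands, was at 1222 RPKM in the knock-in-labelled and 1279 RPKM in the mutant-labelled group. In the other table it was at 1304 RPKM in the mutant-labelled group and 1027 RPKM in the heterozygote. It ranked 86th in the mutant-labelled group of that table and 94th in the heterozygote among 12247 genes. Dkk3, a divergent Dickkopf protein known from mouse retinal progenitors, was at 465 RPKM in the knock-in-labelled and 525 RPKM in the mutant-labelled group; the other table has 535 RPKM for the mutant-labelled group and 441 RPKM for the heterozygote. Ctnnb1 was at 460 RPKM in the knock-in-labelled and 387 RPKM in the mutant-labelled group; the other table has 394 RPKM for the mutant-labelled group and 414 RPKM for the heterozygote. Together these 3 genes held 81.7% of the summed RPKM of the family in the knock-in-labelled group, 81.8% or 81.9% in the mutant-labelled group and 80.8% in the heterozygote. Because RPKM is scaled to length, these levels can be set against each other between genes.

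The remaining members lay far below. Fzd5, the main Frizzled of mouse retinal progenitors, led the receptors with 82.99 RPKM in the mutant-labelled group and 75.6 RPKM in the heterozygote, and Fzd3, a planar polarity receptor needed for axon growth in mice, followed with 53.5 and 57.0 RPKM in the same 2 groups. Among receptors of the R-spondin branch, whose ligands protect Frizzled from removal by the ubiquitin ligase Znrf3, Lgr4 was at 45.7 RPKM in the mutant-labelled group and 42.6 RPKM in the heterozygote. No R-spondin ligand was listed. The 3 listed ligands were low, with Wnt5b at 5.93 RPKM in the mutant-labelled group and 4.33 RPKM in the heterozygote. Axin2, a general target of beta-catenin, was at 1.25 RPKM in the mutant-labelled group and 1.29 RPKM in the heterozygote, near the lower limit of the table. The lowest value that the higher of both groups had in any row was 0.906 RPKM in this table and 1.04 RPKM in the table with the knock-in. The median member was at 10.7 RPKM in the mutant-labelled group and 10.8 RPKM in the heterozygote, where the median of all genes was 13.9 RPKM in both.

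**Figure D1:**
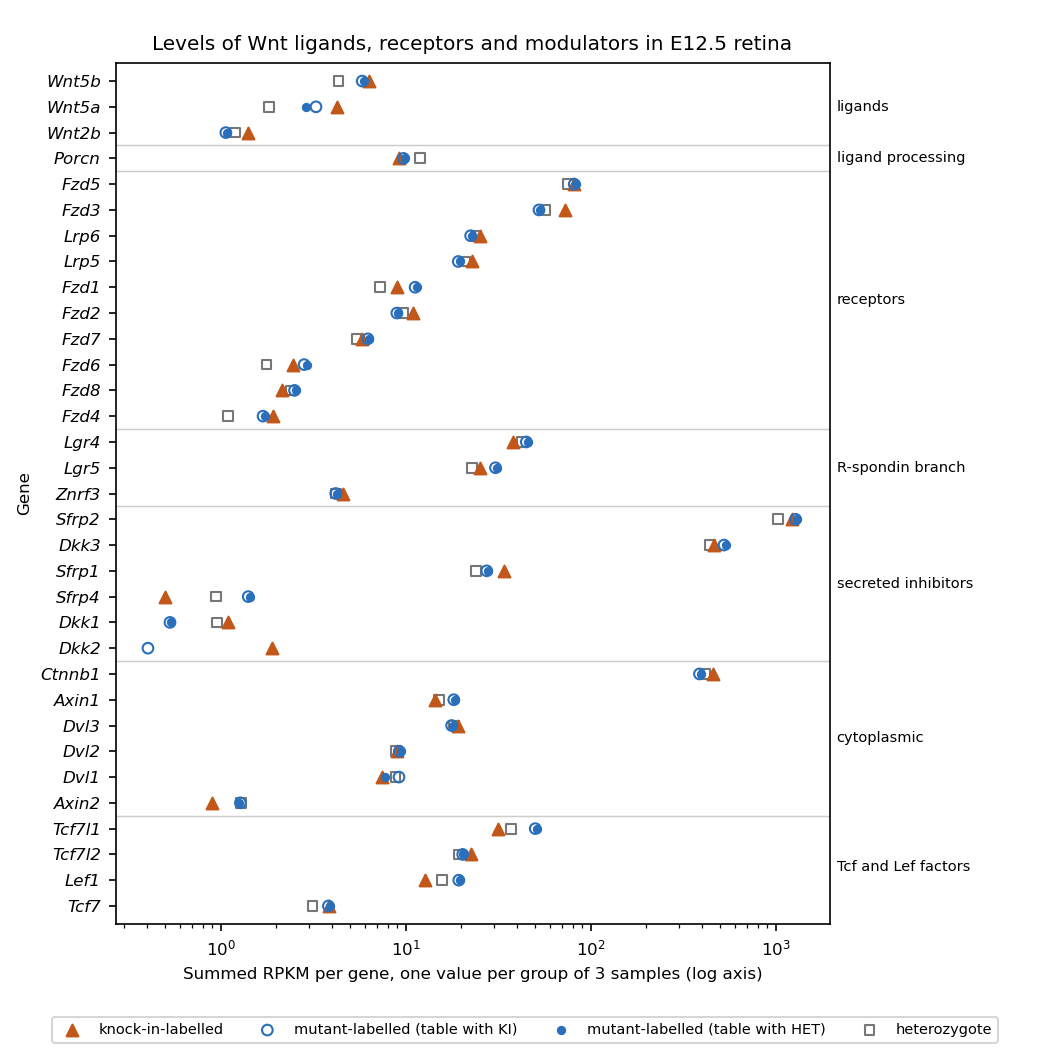
Summed RPKM of each of the 33 Wnt pathway genes, ordered by role, on a log axis; each symbol is the authors' value for a group of 3 samples, so no error bar can be drawn, and the mutant-labelled group appears once per table. Sfrp2, Dkk3 and Ctnnb1 stand above all other members, and most symbols of a gene lie close together.

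The comparison of the mutant-labelled group with the heterozygote addresses the step from one GFP allele at Neurog2 to both. In the Wnt family a single gene rose, the receptor gene Fzd1, and none fell. Fzd1 was at 11.5 RPKM in the mutant-labelled group and 7.26 RPKM in the heterozygote, a 1.58-fold difference or 0.66 on the log2 scale (q = 0.0204 in the authors' deposited table). The standard error of this log2 ratio comes out at 0.17 from the deposited p-value and at 0.28 from the deposited test statistic. A transcript is called where its q in the authors' deposited table is 0.05 or less, and a gene where any of its transcripts is. By this rule 1 of 32 members was called, or 3.13%, beside 1.34% of all 12247 genes (0.245% higher and 1.09% lower), so the count says little about the family as a whole. Of the members 21 had higher and 11 lower summed RPKM in the mutant-labelled group, with a median log2 ratio of 0.12, beside a median of 0.03 over all genes, of which 54.7% were higher. Members ranged from -0.82 for Dkk1 to 0.72 for Fzd6.

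Besides Fzd1, several low receptors and a ligand had higher values in the mutant-labelled group without passing the adjusted test. Fzd6, a Frizzled that acts in planar polarity, was at 2.91 RPKM in the mutant-labelled group and 1.77 RPKM in the heterozygote (q = 0.109 in the authors' deposited table). Fzd4, which serves as the receptor of Norrin in retinal vessels, was at 1.73 RPKM in the mutant-labelled group and 1.09 RPKM in the heterozygote (q = 0.461 in the authors' deposited table). Wnt5a, a ligand best known for the noncanonical branch, was at 2.90 RPKM in the mutant-labelled group and 1.83 RPKM in the heterozygote (q = 0.341 in the authors' deposited table). These 3 genes are the other single-transcript members with higher values and an unadjusted p under 0.05. In all, 9 of 32 members had a transcript with a p under 0.05, 6 of them with a higher and 3 with a lower value. That is 28.1% of the members beside 10.9% of all genes (4.85% higher and 6.2% lower, with some genes in both). Dkk1, among those with a lower value, was listed through the heterozygote alone. The remaining Frizzled genes differed less, with log2 ratios between -0.09 for Fzd3 and 0.23 for Fzd7.

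The Sfrp and Dkk genes, grouped here by symbol as secreted inhibitors, had no call. Sfrp2 had a log2 ratio of 0.34 with p = 0.0793 in the authors' deposited table, and Dkk3 a ratio of 0.28 with p = 0.120 there. Sfrp1, which works together with Sfrp2 in the mouse optic cup, was at 27.9 RPKM in the mutant-labelled group and 23.9 RPKM in the heterozygote (p = 0.128 in the authors' deposited table). Sfrp4 was at 1.43 RPKM in the mutant-labelled group and 0.943 RPKM in the heterozygote (p = 0.0762 in the authors' deposited table). Dkk1, which blocks Lrp6, was the one inhibitor with a lower value, at 0.541 RPKM in the mutant-labelled group and 0.954 RPKM in the heterozygote (p = 0.0283, q = 0.774 in the authors' deposited table). It was listed through the heterozygote value alone and had to be lower. No transcript of 100 RPKM or more was called in this table with a log2 ratio nearer to 0 than 0.517, so a difference of the size seen for Sfrp2 or Dkk3 was below what the test called at that level. Of 56 uncalled member transcripts with a finite ratio and at least 1 RPKM, 40 had a ratio smaller than the smallest one called at their level.

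The 4 Tcf and Lef genes, which encode the DNA-binding partners of beta-catenin, had higher summed values in the mutant-labelled group, and none was called. Tcf7l1, mostly a repressor, was at 51.1 RPKM in the mutant-labelled group and 37.1 RPKM in the heterozygote, and 2 of its 5 transcripts had an unadjusted p under 0.05 (smallest q = 0.587 in the authors' deposited table). Lef1 was at 19.7 RPKM in the mutant-labelled group and 15.7 RPKM in the heterozygote. In the same order Tcf7 was at 3.89 and 3.13 RPKM, and Tcf7l2 at 20.5 and 19.3 RPKM. The smallest p-values in the authors' deposited table were 0.488 for Lef1, 0.8435 for Tcf7 and 0.2755 for Tcf7l2. For Tcf7 the log2 ratio of 0.31 had a standard error of 2.29 from the test statistic, so its direction is not resolved. Lgr5, a receptor for R-spondins, was at 31.1 RPKM in the mutant-labelled group and 22.8 RPKM in the heterozygote (smallest q = 0.939 in the authors' deposited table). Among the cytoplasmic members the log2 ratios stayed between -0.19 for Dvl1 and 0.29 for Axin1.

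Ganglion cell markers fell in this comparison. All 10 ganglion cell markers had lower values in the mutant-labelled group and 7 of them fell, with a summed level of 441 RPKM in the mutant-labelled group and 899 RPKM in the heterozygote. All 10 retinal progenitor markers had higher values and none was called, with a median log2 ratio of 0.29 and a summed level of 1818 RPKM in the mutant-labelled group and 1543 RPKM in the heterozygote. Endothelium was the list nearest to the vessels in which Fzd4 is known, and both of its listed genes, Kdr and Egfl7, had higher values without a call, with 20.7 and 9.38 RPKM in mutant-labelled retinas against 16.8 and 6.45 RPKM in the heterozygote. The other 4 endothelial markers sought, Pecam1, Cdh5, Tek and Cldn5, were not listed in either comparison. Whether Kdr and Egfl7 stand for vessels in these samples therefore cannot be told. The remaining lists had no call either. Values were higher in the mutant-labelled group for 4 of 5 listed pigment epithelium markers, 5 of 7 of optic stalk and ciliary margin, both of surface ectoderm, 2 of 9 of lens, 1 of 3 of mesenchyme and 2 of 4 of blood. Single progenitor markers ranged from 42.4 to 487 RPKM in the mutant-labelled group and from 33.9 to 388 RPKM in the heterozygote, so none was at 0. Their part in the values of the Wnt genes was not tested.

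**Figure D2:**
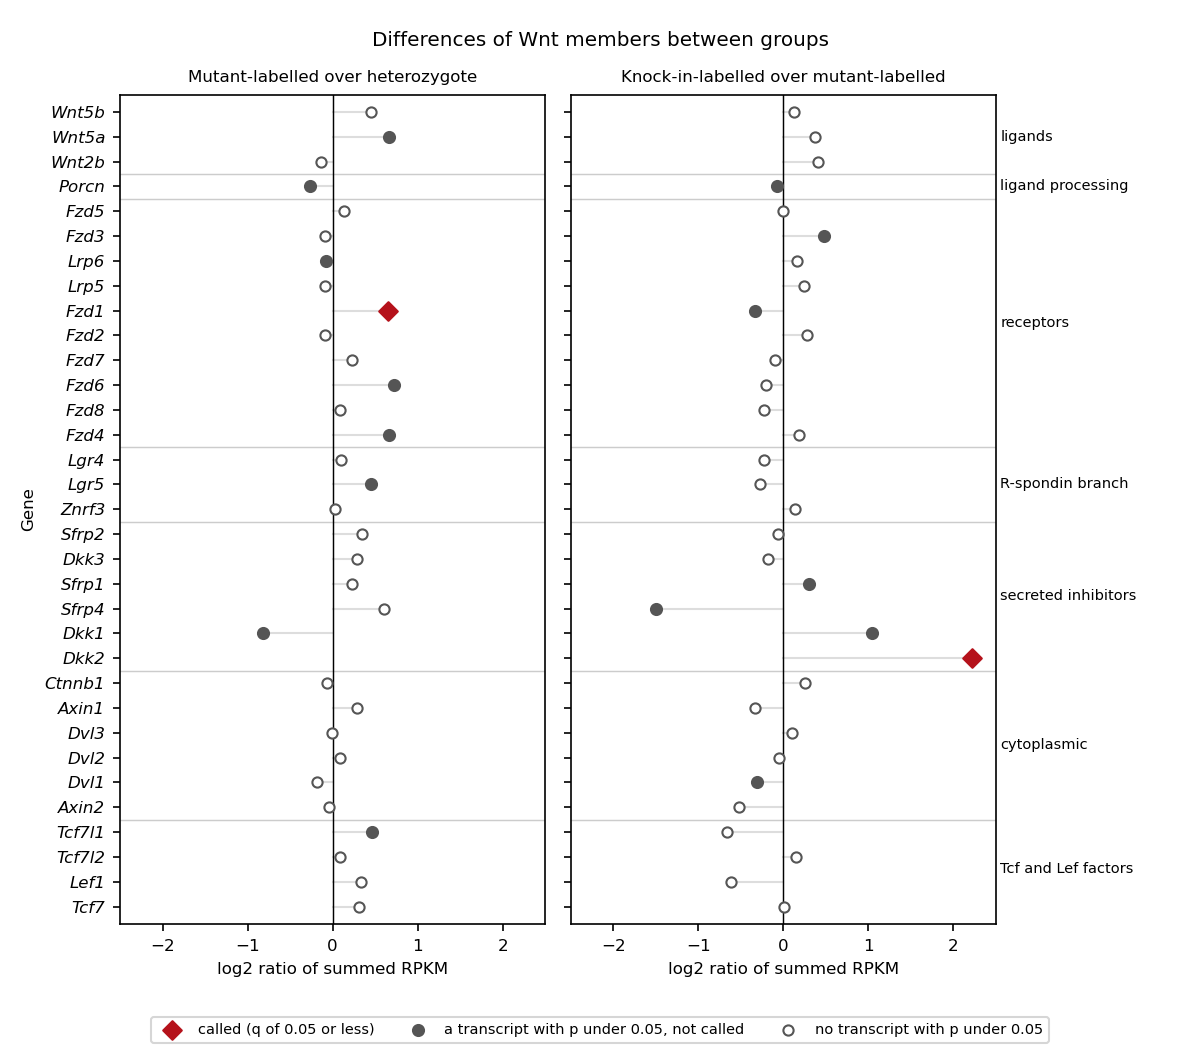
Log2 ratio of summed RPKM for each Wnt pathway gene, mutant-labelled over heterozygote on the left and knock-in-labelled over mutant-labelled on the right; filled diamonds are genes with a transcript at q of 0.05 or less, filled circles have a transcript with p under 0.05 only, and open circles have neither. Fzd1 at 0.66 on the left and Dkk2 at 2.22 on the right are the only diamonds.

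The comparison of the knock-in-labelled with the mutant-labelled group asks what the knock-in changes where the other Neurog2 allele is GFP. Again a single member rose and none fell. Dkk2, which encodes a secreted ligand of Lrp6 known in the mouse eye from the periocular mesenchyme, was at 1.88 RPKM in knock-in-labelled retinas and 0.404 RPKM in the mutant-labelled group, a 4.66-fold difference or 2.22 on the log2 scale (q = 0.0104 in the authors' deposited table). Its p-value in that table was 5e-05, the smallest there. The normal quantile of this p-value gives a standard error of the log2 ratio of 0.55. The test statistic gives 0.59, but the 2 ways are not on one scale. For Sfrp1 in the same comparison they gave 0.14 from the p-value and 0.25 from the test statistic. Since no smaller p-value is given in that table, the 0.55 for Dkk2 may be too large. Dkk2 entered the table only through its value in the knock-in-labelled group, since genes below about 1 RPKM in both groups are not listed. A member listed in this way had to differ, and the call was 1 of 33 members, or 3.03%, beside 1.67% of all 11989 genes (1.03% higher and 0.634% lower). The median log2 ratio of the members was -0.01, with 16 higher and 17 lower, and that of all genes was 0.00. In 4 members 1 group lay below the limit, Dkk1 and Dkk2 listed through the knock-in-labelled and Axin2 and Sfrp4 through the mutant-labelled group, and of the other 29 members 14 were higher.

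Markers of the mesenchyme around the eye were higher in the same group. Of 11 such markers 6 were listed, all 6 had higher values in the knock-in-labelled group, and 2 rose. For 3 of the 6, Twist1, Dcn and Pdgfra, the mutant-labelled value lay below the limit of 1.04 RPKM, so that they were listed through the knock-in-labelled group and had to be higher. The other 3 were higher too, with 1 call, Lum. The called genes were Lum, which encodes a corneal and connective tissue proteoglycan, at 4.06 RPKM in the knock-in-labelled and 1.22 RPKM in the mutant-labelled group, and Pdgfra, a growth factor receptor of mesenchymal cells, at 1.54 RPKM in the knock-in-labelled and 0.449 RPKM in the mutant-labelled group. The 6 ranged from 1.18 to 14.5 RPKM in knock-in-labelled retinas and from 0.288 to 12.6 RPKM in the mutant-labelled group, with sums of 33.4 and 19.4 RPKM in that order. None of the listed markers was at 0, but some defining ones, Foxc1, Foxc2, Prrx1 and Col1a1 among them, were sought and not listed in either comparison. In the table with the heterozygote 3 of these markers were listed, 1 with a higher and 2 with a lower value in the mutant-labelled group. The part of mesenchyme in the Dkk2 value was not tested.

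Marker levels of pigment epithelium, lens and blood were also higher in the knock-in-labelled group. Pigment epithelium markers summed to 116 RPKM in the knock-in-labelled and 24.7 RPKM in the mutant-labelled group, with all 11 listed of 12 higher and 7 called, but 6 of these 11, with 2 of the calls, were listed through the knock-in-labelled group alone. The 5 others were all called. Singly they ran from 1.24 to 31.5 RPKM in knock-in-labelled retinas and from 0.00487 to 6.82 RPKM in the mutant-labelled group. Lens markers summed to 158 RPKM in the knock-in-labelled and 60.1 RPKM in the mutant-labelled group, with 10 of 11 listed higher and 3 called. Of these 11, Foxe3, which was called, and Lim2, which was not, were listed through the knock-in-labelled group alone. Foxe3 had a value of 0 for mutant-labelled retinas. Blood markers summed to 126 RPKM in the knock-in-labelled and 33.8 RPKM in the mutant-labelled group, with all 5 listed of 7 higher and 2 called. Of the 5, 3 were listed through the knock-in-labelled group alone, none of them called. Both listed surface ectoderm markers were higher, with Krt18 called, and 5 of 6 of optic stalk and ciliary margin, with Gja1 called. Both listed endothelium markers had lower values, with sums of 24.01 RPKM in the knock-in-labelled and 29.5 RPKM in the mutant-labelled group, and no call. Wnt2b, a ligand of the pigment epithelium and ciliary margin, was at 1.41 RPKM in the knock-in-labelled and 1.07 RPKM in the mutant-labelled group (p = 0.152 in the authors' deposited table). Axin2 was at 0.893 RPKM in the knock-in-labelled and 1.28 RPKM in the mutant-labelled group (p = 0.424 in the authors' deposited table). The part of these tissues in the values of the Wnt genes was not tested.

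**Figure D3:**
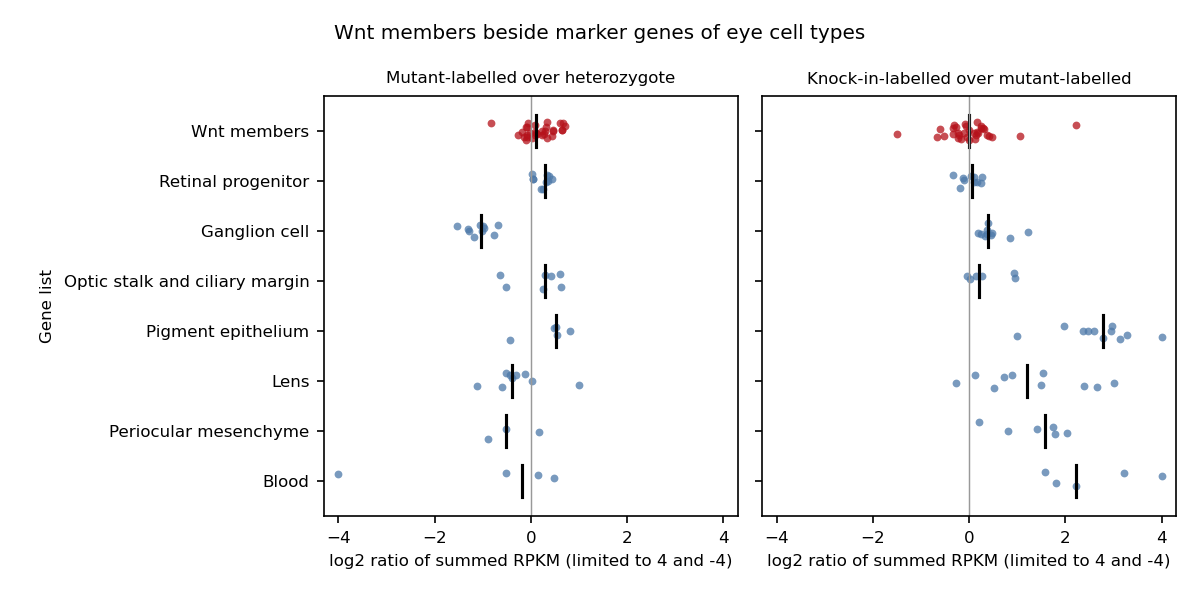
Log2 ratios of the Wnt pathway genes beside those of marker genes of eye cell types, with each point a gene and each black bar the median of its list; ratios beyond 4 are drawn at that limit, and Foxe3, at 0 in the mutant-labelled group, is not drawn. The Wnt medians are 0.12 on the left and -0.01 on the right, while ganglion cell markers lie below 0 on the left and pigment epithelium, mesenchyme and blood markers above 0 on the right, among them genes listed through the knock-in-labelled group alone.

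The other secreted inhibitors gave no further call. Sfrp4 was at 0.498 RPKM in the knock-in-labelled and 1.41 RPKM in the mutant-labelled group, a log2 ratio of -1.50 (p = 0.00325, q = 0.185 in the authors' deposited table). Dkk1 was at 1.10 RPKM in the knock-in-labelled and 0.531 RPKM in the mutant-labelled group, a ratio of 1.05 (p = 0.0114, q = 0.375 in the authors' deposited table). Like Dkk2, both genes were listed through their higher group alone and had to differ. Sfrp1 was at 33.8 RPKM in the knock-in-labelled and 27.4 RPKM in the mutant-labelled group (p = 0.0339, q = 0.614 in the authors' deposited table), and the log2 ratios of Sfrp2 and Dkk3 were -0.07 and -0.18.

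Of the receptors, Fzd3 came nearest to the threshold. Its summed level was 72.8 RPKM in the knock-in-labelled and 52.5 RPKM in the mutant-labelled group, and its smallest q was 0.0767 in the authors' deposited table. The difference lay mainly in the minor of its 2 transcripts, at 24.5 RPKM in the knock-in-labelled and 10.5 RPKM in the mutant-labelled group, while the major one was at 48.3 and 42.0 RPKM in that order. Ganglion cell markers, genes of cells that extend axons, had higher values in the knock-in-labelled group for all 10 genes, with 1 call, Pou4f2, and a median log2 ratio of 0.39. In the mutant comparison their median log2 ratio was -1.04, while that of Fzd3 was -0.09 and that of its minor transcript 0.04. The part of ganglion cells in the Fzd3 value was not tested. Fzd1 was at 8.95 RPKM in the knock-in-labelled and 11.2 RPKM in the mutant-labelled group, a log2 ratio of -0.33 with p = 0.0342 and q = 0.615 in the authors' deposited table. The 2 comparisons share the mutant-labelled samples, so a chance deviation of those samples enters both Fzd1 ratios with opposite sign. Fzd5 was at 81.1 RPKM in the knock-in-labelled and 81.4 RPKM in the mutant-labelled group.

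Among the Tcf and Lef genes, Tcf7l1 was at 31.7 RPKM in the knock-in-labelled and 50.1 RPKM in the mutant-labelled group, a log2 ratio of -0.66, and Lef1 at 12.6 and 19.3 RPKM in that order, a ratio of -0.61. Neither passed, with smallest p-values of 0.0993 and 0.203 in the authors' deposited table. For Tcf7l1 most of the difference was in a transcript at 3.51 RPKM in the knock-in-labelled and 19.1 RPKM in the mutant-labelled group. Of the 33 members 8 had a transcript with an unadjusted p under 0.05, 5 with a higher and 3 with a lower value. That is 24.2% of the members beside 14.6% of all genes (8.56% higher and 6.46% lower, with some genes in both). Among these 8, Dkk1, Dkk2 and Sfrp4 were listed through their higher group alone and had to differ, so the share says little about the family. Of 60 uncalled member transcripts with a finite ratio and at least 1 RPKM, 37 had a ratio smaller than the smallest one called at their level.

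The members not yet named in the knock-in comparison had no call either. Dvl1, which relays the signal from Frizzled, was at 7.41 RPKM in knock-in-labelled and 9.19 RPKM in mutant-labelled retinas, and one of its transcripts was at 4.83 and 7.56 RPKM in that order (p = 0.0268 in the authors' deposited table). Its relatives Dvl2 and Dvl3 had log2 ratios of -0.05 and 0.11, and Axin1, the scaffold of the destruction complex, one of -0.33. The ligands Wnt5a and Wnt5b had summed ratios of 0.38 and 0.12. For Wnt5a the main transcript, at 3.04 RPKM in knock-in-labelled and 2.85 RPKM in mutant-labelled retinas, had a ratio of 0.10. Its second transcript, at 1.20 and 0.426 RPKM in that order, was listed through the knock-in-labelled value alone and had to be higher. Among the receptors, Fzd2 was at 0.28, Fzd4 at 0.18, Fzd6 at -0.20, Fzd7 at -0.10 and Fzd8 at -0.23 on the log2 scale, and the co-receptors Lrp5 and Lrp6 at 0.25 and 0.16. In the R-spondin branch the ratios were -0.23 for Lgr4, -0.28 for Lgr5 and 0.13 for Znrf3. Tcf7 and Tcf7l2, the other Tcf factors, had ratios of 0.00 and 0.15.

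In the mutant comparison the co-receptor Lrp5 was at 19.6 RPKM in the mutant-labelled group and 20.8 RPKM in the heterozygote, Znrf3 at 4.27 and 4.18 RPKM in that order, and Wnt2b at 1.09 and 1.19 RPKM. The log2 ratios of Fzd2 and Fzd8 were -0.09 and 0.09, and those of Dvl2 and Dvl3 0.09 and -0.01.

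Several members had more than 1 assembled transcript, and some of these differed between groups in opposite directions. Transcripts were matched between the tables by symbol and by their mutant-labelled value, and 48 of 60 member transcripts of the heterozygote table had a match. Porcn, on the X chromosome, was at 9.91 RPKM in the mutant-labelled group and 11.96 RPKM in the heterozygote when its 3 transcripts were summed. One of them was at 2.17 RPKM in the mutant-labelled group and 5.97 RPKM in the heterozygote (p = 0.0111, q = 0.489 in the authors' deposited table). In the other table the same transcript was at 5.88 RPKM in the knock-in-labelled and 2.13 RPKM in the mutant-labelled group (p = 0.0254, q = 0.544 in the authors' deposited table), while the summed Porcn level was 9.21 and 9.73 RPKM in that order. Another X-linked RNA, Xist, which is made in female cells, was at 505 RPKM in the mutant-labelled group and 184 RPKM in the heterozygote; the other table has 174 RPKM for knock-in-labelled and 496 RPKM for mutant-labelled retinas. Both differences of this Porcn transcript share the mutant-labelled samples, so a chance deviation of those samples enters both with opposite sign. The part of sex in the Porcn values, or in those of any other member, Fzd1 and Dkk2 among them, was not tested. Lrp6 had a transcript at 9.81 RPKM in the mutant-labelled group and 13.8 RPKM in the heterozygote (p = 0.0215, q = 0.697 in the authors' deposited table), and another at 12.2 and 8.44 RPKM in that order (p = 0.0601 in the authors' deposited table), so the summed level of Lrp6 differed by only -0.07 on the log2 scale. The values of these matched transcripts are shown in the plot of assembled transcripts.

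**Figure D4:**
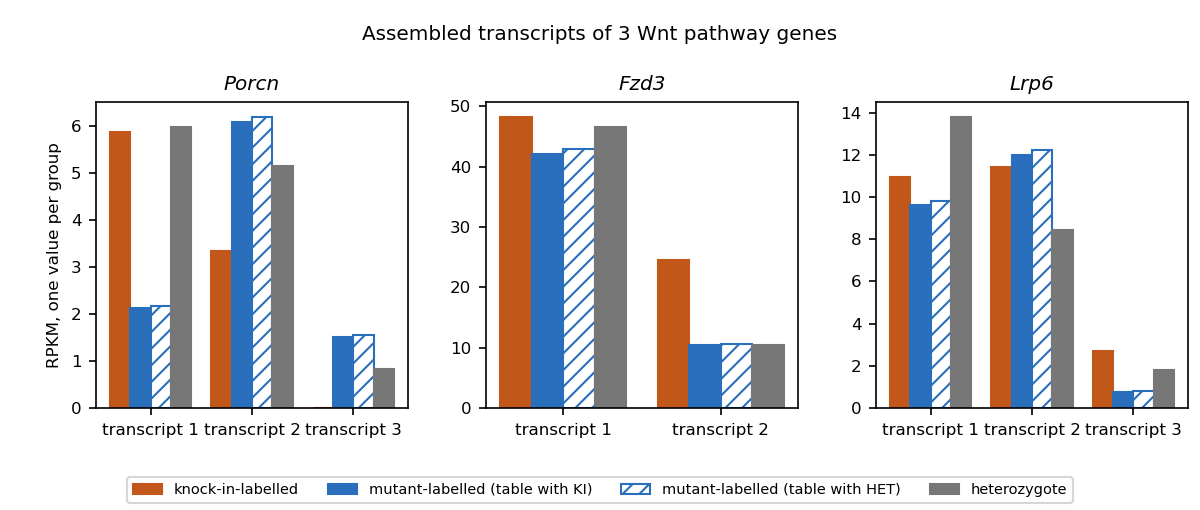
RPKM of the matched transcripts of Porcn, Fzd3 and Lrp6 in each group, with the mutant-labelled value from each of the 2 tables; each bar is the authors' value for a group of 3 samples, without a spread. The first Porcn transcript is at 5.88 RPKM in knock-in-labelled retinas, 2.13 or 2.17 RPKM in the mutant-labelled group and 5.97 RPKM in the heterozygote, and the second Fzd3 transcript at 24.5 RPKM in knock-in-labelled retinas.

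Other genes of the pathway, from a list of 105, had few calls. Of 79 listed in the mutant comparison 2 fell and none rose, beside 1.34% of all genes called, and their median log2 ratio was 0.03. The genes that fell were Apc2, a relative of the tumour suppressor Apc found mainly in neurons, at 6.54 RPKM in the mutant-labelled group and 9.94 RPKM in the heterozygote (q = 0.0424 in the authors' deposited table), and Sp8, a transcription factor reported as a Wnt target in other tissues, at 2.99 RPKM in the mutant-labelled group and 4.84 RPKM in the heterozygote (q = 0.0424 in the authors' deposited table). In the knock-in comparison 79 were listed, 2 fell and none rose, beside 1.67% of all genes called, with a median of 0.01. These were Jun, an immediate early gene, at 12.1 RPKM in the knock-in-labelled and 26.3 RPKM in the mutant-labelled group (q = 0.0104 in the authors' deposited table), and Bambi, which encodes a membrane pseudoreceptor of TGF-beta family signals, at 2.32 RPKM in the knock-in-labelled and 3.77 RPKM in the mutant-labelled group (q = 0.0413 in the authors' deposited table). Other immediate early genes differed in the same comparison, with Fos at 0.536 RPKM in the knock-in-labelled and 31.8 RPKM in the mutant-labelled group; their part in the Jun value was not tested.

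By sub-list, the destruction complex and cytoplasmic genes had 20 members listed, with Apc2 the one call over both tables. Gsk3b, a kinase that marks beta-catenin for destruction, was at 163 RPKM in the knock-in-labelled and 146 RPKM in the mutant-labelled group, and Tnks2, which promotes turnover of Axin, at 134 and 133 RPKM in that order. All 15 nuclear cofactors were listed and none was called, among them Tle4, a co-repressor of Tcf factors, at 54.1 RPKM in the knock-in-labelled and 52.2 RPKM in the mutant-labelled group. Of co-receptors and extracellular modulators 11 of 18 were listed in the mutant and 12 in the knock-in comparison, with no call; the most abundant was Gpc6, a cell surface glypican, at 30.2 RPKM in the knock-in-labelled and 27.2 RPKM in the mutant-labelled group. In the planar polarity and noncanonical list 23 of 31 were listed in the mutant and 21 in the knock-in comparison, again with no call. The most abundant of these was Rac1, at 365 RPKM in the knock-in-labelled and 323 RPKM in the mutant-labelled group. Celsr3, a polarity cadherin of neurons needed for axon tracts in mice, was at 5.71 RPKM in the mutant-labelled group and 10.4 RPKM in the heterozygote (p = 0.00055, q = 0.0782 in the authors' deposited table). Of genes reported as targets in other tissues, Ccnd1, a cyclin of the G1 phase, was the most abundant, at 487 RPKM in the mutant-labelled group and 388 RPKM in the heterozygote, without a call.

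The stretches before the start sites of Fzd1 and Dkk2 are printed because these are the called genes, and that of Dkk1, which was not called, as an example of a member that holds a Tcf core. They are the 250 bases before the RefSeq start on GRCm38.p6, the same assembly as mm10, each read in the direction of the gene, with motif letters in capitals. Fzd1 lies on the minus strand, where the stretch is chr5:4758217-4758466; the RefSeq start is upstream of the end of the authors' locus at 4758035. Dkk2 lies on the plus strand, with chr3:132085042-132085291, and the authors' locus runs from 132085292 to 132180304. Dkk1 lies on the minus strand, with chr19:30549497-30549746, of which 169 bases lie inside the authors' locus, which ends at 30549665.
Fzd1: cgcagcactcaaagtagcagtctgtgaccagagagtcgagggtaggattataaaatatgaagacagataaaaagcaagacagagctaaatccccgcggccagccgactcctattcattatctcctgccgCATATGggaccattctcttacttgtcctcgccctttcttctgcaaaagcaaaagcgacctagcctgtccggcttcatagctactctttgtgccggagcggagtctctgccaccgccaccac
Dkk2: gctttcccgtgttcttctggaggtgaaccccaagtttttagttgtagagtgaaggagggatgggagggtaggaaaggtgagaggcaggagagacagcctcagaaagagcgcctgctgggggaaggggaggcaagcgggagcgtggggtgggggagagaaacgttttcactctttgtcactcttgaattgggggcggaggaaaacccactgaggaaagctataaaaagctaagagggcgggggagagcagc
Dkk1: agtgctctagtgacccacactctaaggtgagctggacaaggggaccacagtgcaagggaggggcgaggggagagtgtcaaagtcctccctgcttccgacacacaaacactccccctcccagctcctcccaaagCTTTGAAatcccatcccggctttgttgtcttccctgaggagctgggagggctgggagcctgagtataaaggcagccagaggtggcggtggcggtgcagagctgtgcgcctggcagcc
The letters searched on both strands were, for Tcf and Lef factors, the core CTTTGAT and its variant CTTTGAA. For basic helix-loop-helix factors such as Neurog2 they were the E-box CAGATG, the E-box with the letters CAGCTG and the E-box spelled CATATG, and none of the searched motifs contains another. Fzd1 held CATATG, 116 to 121 bases before its start, and 3.46% of 32851 mouse promoters of that length held these letters. Dkk1 held CTTTGAA, 111 to 117 bases before its RefSeq start and inside the authors' locus, as did 4.46% of all promoters, and Dkk2 held none of the letters. Of the members 19 had a promoter in the table, with 27 start sites. A Tcf core was in 2 of the 27, or 7.41%, beside 7.48% of all promoters, and an E-box of these kinds in 5, or 18.5%, beside 28.1%. A match is a run of letters and not a shown binding site.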

How the data were processed

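Total RNA libraries of the 9 samples were made with the TruSeq kit, per the labels' protocols. Per the submitters' processing notes Bowtie2, Cufflinks and Cuffdiff were used on mm10, without version numbers. As deposited by the authors, there is 1 table per comparison, with RPKM values pooled over the 3 samples of each group, a test statistic (a score of no fixed range), and p-values and q-values for each assembled transcript, per the file headers. Because no value per sample is given, the test of each transcript is the authors' own, and its p-values measure the spread between samples whose separate origin the labels do not state.

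RPKM was summed per gene over listed transcripts, and log2 ratios were taken from these sums without a pseudocount, since the deposited log2 column holds spreadsheet error cells, with Python 3.11.15, numpy 2.4.6, pandas 2.3.3 and scipy 1.17.1. A gene was called where any transcript had a deposited q of 0.05 or less, a q adjusted over the whole table of 27311 or 26586 transcripts. Re-adjusting the deposited p-values, by a procedure tested on simulated data, gave the deposited q to within 5.26e-07. Rows with no symbol or a date in its place, 173 and 172, stayed out of gene sums. The tables were normalized separately: the mutant-labelled values differed by a median of -0.03 on the log2 scale, and levels are compared only within a table. Transcripts were matched between tables where their mutant-labelled values lay within 0.05 of that median, which 98.6% of 5047 single-transcript genes do. Standard errors were taken as the log2 ratio divided by the normal quantile of its p-value, or by the test statistic. Loci are given from base 1.

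Members, gene lists and tests were chosen with earlier results of these data known. Members named are those called, those with a p under 0.05 in any transcript, the 2 most abundant of each role, the 5 largest rises and falls with at least 1 RPKM, and the member listed in 1 table; other names complete the roles and were chosen after their values were seen. Pathway genes named are those called and the most abundant of a sub-list. Celsr3 and Sostdc1 lie outside this rule and were chosen after their values were seen. Alternatives were other thresholds, filters, pseudocounts, scalings and the most abundant transcript.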

Additional observations from a re-analysis of the deposited data

How the results depend on the processing

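In the mutant comparison the count of 1 called member, Fzd1, was also found at a q of 0.1 or less and with transcripts under 1 or under 5 RPKM left out and the adjustment repeated; at an unadjusted p under 0.05 it was 9. In the knock-in comparison the count of 1, Dkk2, was 2 at a q of 0.1 or less, with Fzd3 added, 8 at an unadjusted p under 0.05, and 0 with transcripts under 5 RPKM left out, since Dkk2 lies below that level; of the 22 members left, 5 had an unadjusted p under 0.05 in Cuffdiff's test. The median log2 ratio of the members lay between 0.09 and 0.19 in the mutant comparison and between -0.07 and -0.00 in the knock-in comparison under all pseudocounts, filters, scalings and gene summaries tried. Of the ratios of single members under the alternatives, with the 6 members outside the naming rule added after seeing the data, 256 moved by less than 1.5-fold and 4 by more, namely Dkk1, Dkk2 and Sfrp4 with a pseudocount of 1 RPKM and Porcn by its most abundant transcript, all in the knock-in comparison. By the most abundant transcript the sign changed for Axin1, Dvl3 and Porcn in the mutant comparison and for Dvl3 and Lrp6 in the knock-in comparison, and relative to the median of all genes for Znrf3 in the mutant comparison, none of them called. No paired analysis was possible because the tables hold no value per sample, and for the same reason no replicate could be left out. Among the limits of the results, small differences of abundant genes were not called and genes below about 1 RPKM in both groups are not listed. The near absence of Y-linked RNA in the mutant-labelled group limits both comparisons. The title number and the higher markers of other eye tissues limit the knock-in comparison.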

Other observations

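Some assembled transcripts of members were listed below 0.05 RPKM in 1 of the groups compared. In the mutant comparison 4 had such a value in the heterozygote and 2 in the mutant-labelled group, and in the knock-in comparison there were 3 in each direction. A Ctnnb1 transcript was at 10.2 RPKM in the mutant-labelled group and listed at 0 in the heterozygote (p = 0.196 in the authors' deposited table), and the matching one was listed at 0 in the knock-in-labelled group, against 9.97 RPKM in the mutant-labelled group (p = 0.200 in the authors' deposited table). A second Ctnnb1 transcript was at 2.80 RPKM in the mutant-labelled group and 0.0110 RPKM in the heterozygote; the other table has 0.00390 RPKM for knock-in-labelled and 2.74 RPKM for mutant-labelled retinas. The summed log2 ratios of Ctnnb1 were -0.07 in the mutant and 0.25 in the knock-in comparison. The tables share the mutant-labelled samples, so the second comparison is no independent sight of the same transcripts. Lgr5 and Axin1 each had a transcript of this kind in the mutant comparison, at 2.81 RPKM in the mutant-labelled group against 0.0412 RPKM in the heterozygote for Lgr5, and at 3.28 against 0.0133 RPKM in that order for Axin1; in the knock-in-labelled group the matching transcripts were at 0.796 and 1.03 RPKM. The 2 that ran the other way were an Axin1 transcript listed at 0 in the mutant-labelled group, against 1.48 RPKM in the heterozygote, and a Tcf7l1 transcript at 0.00140 against 1.39 RPKM in that order. In the knock-in comparison those low in the mutant-labelled group were transcripts of Ctnnb1, Tcf7l1 and Tcf7l2, with 1.69, 1.39 and 1.67 RPKM in knock-in-labelled retinas, and a Porcn transcript was listed at 0 in the knock-in-labelled group, against 1.52 RPKM in the mutant-labelled group. By Cuffdiff none of these differences reached p under 0.05 before adjustment.

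Sostdc1, a secreted protein that binds Lrp6 and was in the list of extracellular modulators, was at 1.87 RPKM in the knock-in-labelled and 0.634 RPKM in the mutant-labelled group (p = 0.0013 in the authors' deposited table), and like Dkk2 it was listed in that table alone, through its knock-in-labelled value.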
